A study of Mus musculus with 12 samples.

Results

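The potassium channel genes of the mouse brain were the 81 protein-coding genes whose symbol begins with Kcn, a letter code and a number and whose mean normalized count over all 12 mice was at least 10. The table held 19775 genes, of which 15779 were protein-coding and 15129 of these had such a mean. A matching symbol was found for 87 genes. Of the 6 that were not members, 2 were protein-coding with a lower mean (Kcnk15 at 8.10 and Kcne3 at 5.37), and 4 were antisense transcripts. The members nearest the limit from above were Kcnn4 at 10.3 and Kcnq1 at 15.4. The rule used no difference between genotypes. The members comprised 37 voltage-gated genes, 13 inward rectifiers, 10 two-pore channels, 8 calcium-activated channels and 13 auxiliary subunits.

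Potassium channels let potassium leave a neuron or a glial cell down its gradient, and so set the resting potential, end the action potential and limit repetitive firing. Voltage-gated channels are tetramers that open on depolarization, inward rectifiers and two-pore channels carry resting conductance, and calcium-activated channels couple intracellular calcium to the membrane potential. Auxiliary subunits do not form the pore and instead change the trafficking, voltage dependence or inactivation of the channels they bind.

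RNA came from whole brains of male C57BL/6N mice at about postnatal day 120, with 4 wild-type (WT), 4 heterozygous Slc6a20a+/- (HT) and 4 homozygous Slc6a20a-/- (HM) animals. Slc6a20a encodes a transporter of proline and glycine, and the mutant allele lacks exon 3 in all cells from the germ line on. The 3 genotypes were compared in pairs, to ask how loss of either 1 or both copies of this transporter affects brain transcripts. A whole brain mixes all regions and cell types, so that fewer cells of a type and less RNA per cell cannot be told apart. Slc6a20a itself had a normalized count of 679 ± 70.1 in the WT mice, 345 ± 29.1 in the HT mice and 64.5 ± 9.95 in the HM mice (mean ± SD, n = 4 mice, here and below). The values were counts already scaled by the authors, with sums of 33284951 to 33748623 per mouse, so the read depth of each library is unknown. No pair of mice held identical values (pairwise Pearson r across genes of 0.988 to 0.991).

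Marker lists of other cell types and regions differed between genotypes in places. In HM brains, 7 of 7 olfactory bulb markers had a log2 fold change above 0 against WT, 6 of them with an unadjusted p under 0.05, and their summed counts ranged from 3012 to 4019 against 2417 to 2820 in WT and 2273 to 2692 in HT. All 6 choroid plexus markers were below 0 in HM against WT, 3 with an unadjusted p under 0.05, with sums of 9800 to 17815 in HM, 12445 to 20101 in HT and 15163 to 19681 in WT. All 5 blood markers were lower in HT than in WT at an unadjusted p under 0.05, with sums of 6495 to 8717 in HT, 7780 to 21984 in WT and 5859 to 29023 in HM. The 6 endothelial and pericyte markers were all above 0 in HM against WT, 3 of them with an unadjusted p under 0.05 (sums of 8202 to 9033 in HM and 7079 to 8802 in WT). All 5 neuronal markers were above 0 in HM against WT and 3 of 5 in HT against WT, and sums were 173501 to 180243 in HM, 170862 to 181397 in HT and 164224 to 178535 in WT. Of the remaining lists, at most 2 markers per list had an unadjusted p under 0.05 against WT: 1 of 5 for astrocytes in HT, 1 of 5 for microglia in HM, 2 of 5 in HT and 1 of 5 in HM for hippocampus and cortex, and 0 for oligodendrocytes, cerebellum and striatum. No listed marker was at 0 in all mice and none passed an adjusted p of 0.05. The part of these lists in the results on potassium channels was not tested, except where a relation over mice is given.

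The part of the protein that the pore-forming members share is the selectivity filter, in which a glycine-tyrosine-glycine or glycine-phenylalanine-glycine run lines the narrowest stretch of the pore. These letters were looked for in the coding strand, in frame, of the coding sequence of each member in GENCODE M21 on GRCm38, as GGNTANGGN (tyrosine) or GGNTTNGGN (phenylalanine or leucine). All 68 coding sequences of the 4 pore-forming classes held at least 1 match, and none of the 13 auxiliary ones did, against 18.7% of 15703 coding sequences of protein-coding genes in the table. Auxiliary coding sequences are shorter (369 to 1212 bases against 939 to 3717 bases). GGNTANGGN was present in 30 of 37 voltage-gated, 11 of 13 inward rectifier, 7 of 10 two-pore and 5 of 8 calcium-activated members, and GGNTTNGGN in 9, 4, 8 and 3 of them. The windows below are shown for members that carry the results that follow, with at least 1 from each pore-forming class. Each lies in a single coding exon of the transcript used, whose number is given, and is written 5′ to 3′ on the coding strand, with the matched bases in capitals.
Kcna4, chr2:107296483-107296521, plus strand, exon 2: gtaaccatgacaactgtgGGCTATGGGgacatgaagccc
Kcnb2, chr1:15710034-15710072, plus strand, exon 2: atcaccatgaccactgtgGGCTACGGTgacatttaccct
Kcng1, chr2:168262629-168262667, minus strand, exon 3: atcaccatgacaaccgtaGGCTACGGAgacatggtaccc
Kcng3, chr17:83587902-83587940, minus strand, exon 2: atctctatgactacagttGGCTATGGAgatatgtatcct
Kcnh3, chr15:99232917-99232955, plus strand, exon 8: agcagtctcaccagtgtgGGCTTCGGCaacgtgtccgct
Kcnj13, chr1:87389009-87389047, minus strand, exon 2: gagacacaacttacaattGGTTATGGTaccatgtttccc
Kcnk10, chr12:98440593-98440631, minus strand, exon 5: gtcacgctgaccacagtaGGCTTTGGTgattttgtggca
Kcnma1, chr14:23528401-23528439, minus strand, exon 8: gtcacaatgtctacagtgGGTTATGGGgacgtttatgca
Kcnt1, chr2:25894355-25894393, plus strand, exon 11: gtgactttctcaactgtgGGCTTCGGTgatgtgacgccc
The codon next but one upstream of the match was ACN, threonine, in each of these windows except that of Kcnh3, where it was AGT, serine. Kcng1 and Kcng3, silent subunits that form no channel by themselves, carried the tyrosine form like Kcnb2, whose channel they join. Kcnh3 and Kcnt1 carried the phenylalanine form. Kcnk10 held 1 match of each form. The tyrosine form came first, at codon 166 in a window that spans exons 3 and 4. The window shown is that of the phenylalanine form, at codon 275. A match is a description of the letters and not a measurement of a channel.

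Levels were compared between genes as normalized counts per kb of the median transcript length. High levels in WT brains were those of the auxiliary subunits Kcnab2 (3924 ± 99.3 per kb), which binds Kcna channels, and Kcnip2 (3832 ± 110.1 per kb), which binds Kcnd channels. Next came Kcnma1, the large-conductance calcium-activated channel, at 2558 ± 248 per kb, and the axonal channel Kcna2, at 2535 ± 258 per kb. The mice separated Kcnip2 from Kcnma1, whereas the ranges of Kcnab2 and Kcnip2 and those of Kcnma1 and Kcna2 overlapped.

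Over the whole order, 71 of 80 pairs of neighbours had overlapping ranges among the 4 WT mice. The 10 highest members held 48.3% of the summed level per kb. By class, the voltage-gated genes held 46.3% of this sum, auxiliary subunits 24.1%, inward rectifiers 12.0%, calcium-activated channels 10.1% and two-pore channels 7.44%. The highest inward rectifier was Kcnj9, a G protein-gated subunit (1814 ± 63.0 per kb), and the highest two-pore channel was Kcnk1, a weakly rectifying leak channel (1806 ± 67.6 per kb). Kcnn4, known from blood cells and epithelia, was lowest at 4.86 ± 1.26 per kb.

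**Figure D1:**
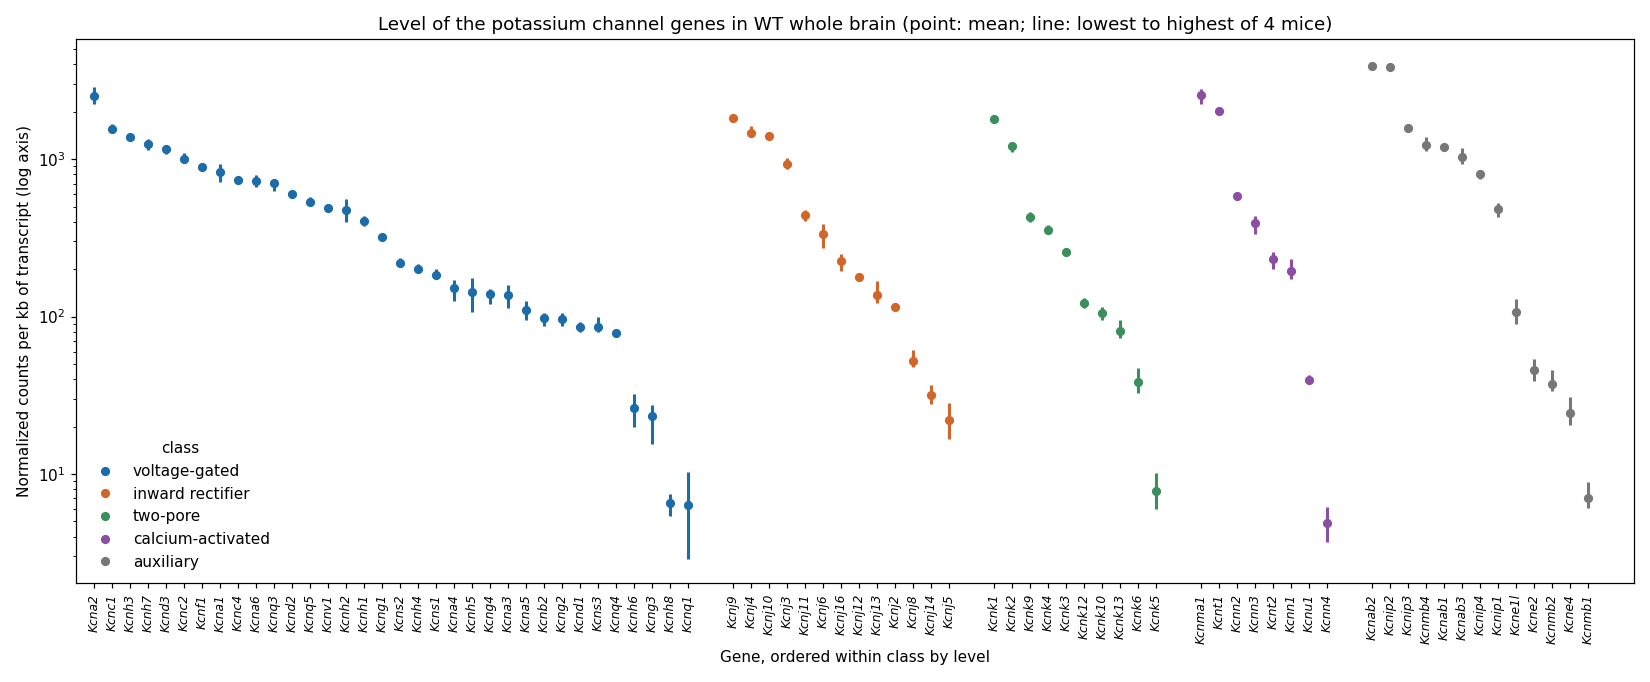
Normalized counts per kb of transcript (log axis) of the potassium channel genes reported here, in WT brains, ordered within each class; points are means and lines run from the lowest to the highest of 4 mice. Kcnn4 is lowest at 4.86, Kcnab2 stands at 3924, and the inward rectifiers run from 22.1 to 1814.

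Within the families, the member with the highest level per kb was Kcna2 (Kcna), Kcnd3 (Kcnd), Kcnf1 (Kcnf), Kcng1 (Kcng), Kcnh3 (Kcnh), Kcns2 (Kcns) and Kcnv1 (Kcnv) among the voltage-gated genes. It was Kcnma1, Kcnn2, Kcnt1 and Kcnu1 among the calcium-activated genes, and Kcnab2, Kcne1l, Kcnip2 and Kcnmb4 among the auxiliary ones. Kcnu1, the sperm channel, had 99.2 ± 5.33 normalized counts in WT brains and 39.8 ± 2.14 per kb. Kcne1l, a small single-pass subunit, had 165 ± 26.2 normalized counts.

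Spread between mice of a genotype was small for most members. The coefficient of variation, averaged over the 3 genotypes, had a median of 6.83% and was under 10% for 57 of 81 members. It was lowest for Kcnf1 at 2.40% and the astrocyte channel Kcnj10 at 2.69%. It was highest for Kcnn4 (38.9%) and Kcnq1 (32.4%), whose normalized counts are low, and next highest for Kcne2 (29.0%) and Kcnj13 (27.4%). WT replicate 1 was the lowest of all 12 mice for 20 members, 14 of them voltage-gated, and in no other mouse were more than 10 members lowest.

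Loss of Slc6a20a left no potassium channel gene past the adjusted threshold. The number of members with an adjusted p under 0.05 was 0 of 81 in HT against WT, where 0.00555% of all genes passed, 0 of 80 in HM against WT (0.0111% of all genes) and 0 of 81 in HM against HT (0.00556% of all genes). The test was limma on log2(normalized count + 1) with Benjamini-Hochberg adjustment over all genes tested, and fold changes below are on that scale. The lowest adjusted p of any member was 0.768, 0.643 and 1, respectively. At an unadjusted p under 0.05 there were 6 of 81 members in HT against WT (6.42% of all genes), 9 of 80 in HM against WT (6.99%) and 1 of 81 in HM against HT (3.74%). By direction, 3 members were higher (3.16% of all genes) and 3 lower (3.26%) in HT than in WT, 7 were higher (3.93%) and 2 lower (3.05%) in HM than in WT, and 1 was higher (2.11%) and 0 lower (1.62%) in HM than in HT. Both comparisons with WT used the same 4 WT mice.

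The intervals show what size of difference these 4 mice per genotype leave room for. The 95% interval of the log2 fold change lay within -0.5 to 0.5 for 68 of 81 members in HT against WT, 69 of 80 in HM against WT and 72 of 81 in HM against HT. It lay within -0.25 to 0.25 for 43, 46 and 53 members. Members outside the wider limits in HM against WT included Kcna4, Kcng3, Kcnj13 and Kcne2, and otherwise mostly genes of low count such as Kcnq1, Kcnk5 and Kcnmb1. Kcnn4 was not tested in HM against WT because its mean over those 8 mice was under 10.

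Voltage-gated members mostly had values above WT in both mutant genotypes, by small amounts that no single gene carried past the adjusted threshold. In HT against WT, 31 of 37 voltage-gated members had a log2 fold change above 0 (50% of all genes), with a median of 0.06 against 5.09e-05 for all genes tested. In HM against WT, 33 of 37 did (49.8% of all genes), with a median of 0.08 against -0.00029. In HM against HT the count was 24 of 37 (49.5% of all genes) and the median was 0.01. Inward rectifiers had medians of 0.03 in both comparisons with WT (7 and 11 of 13 above 0), and calcium-activated channels of 0.04 and -0.01 (4 of 8 and 3 of 7). Two-pore channels stood at -0.02 and -0.05 (5 and 3 of 10), and auxiliary subunits at -0.05 and -0.03 (5 and 3 of 13). Over all members the medians were 0.04, 0.03 and 0.01 in the 3 comparisons, with 52 of 81, 53 of 80 and 45 of 81 above 0. No test was run on these counts, since the members were chosen with results of the same mice known.

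**Figure D2:**
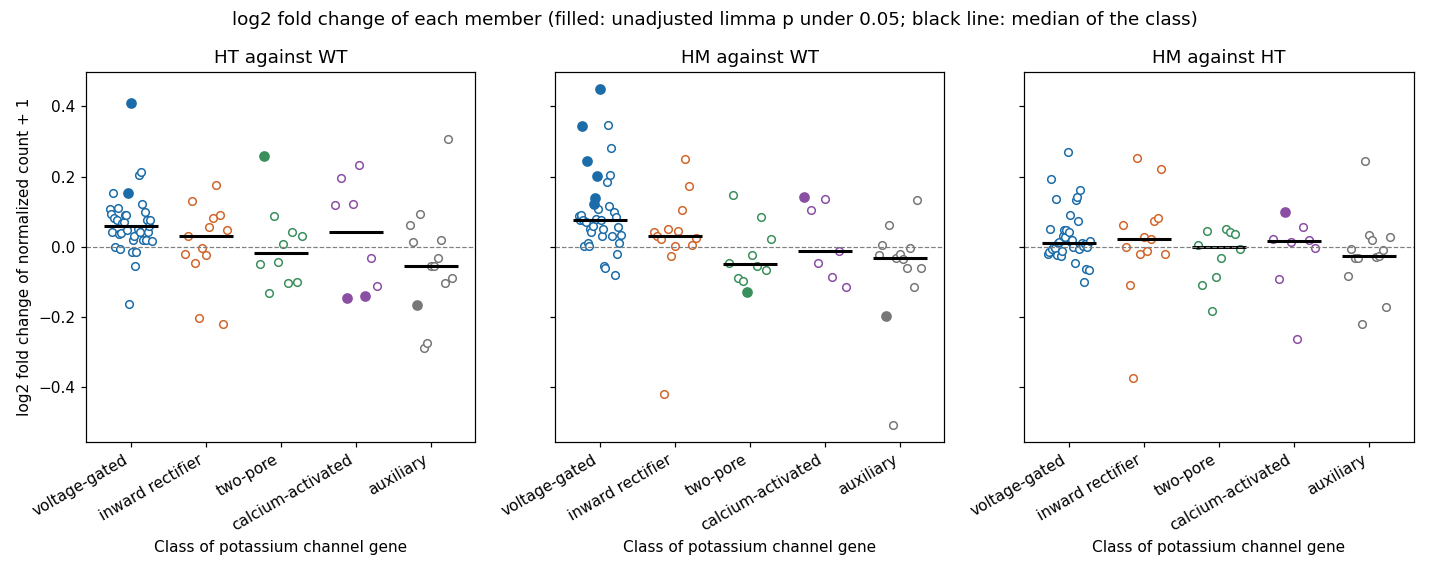
log2 fold change of normalized count + 1 for each member, by class, in the 3 comparisons of genotypes; filled points have an unadjusted limma p under 0.05 and black lines are class medians. In both comparisons with WT the voltage-gated median lies above 0 (0.06 and 0.08) and the auxiliary median below 0 (-0.05 and -0.03).

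In single mice the median voltage-gated member lay -0.02, 0.08, 0.01 and -0.03 from its own WT mean (log2) in WT replicates 1 to 4. The same value was 0.08, 0.03, 0.04 and 0.08 in HT and 0.05, 0.09, 0.08 and 0.11 in HM replicates 1 to 4. WT replicate 2 lay within the range of the mutant mice, and the other 3 WT mice lay below all of them. Over all members the same value was -0.02 to 0.01 in WT, 0.02 to 0.05 in HT and 0.02 to 0.06 in HM mice, so that each mutant mouse stood above each WT mouse. With its 9 silent subunits set aside, the voltage-gated class kept 24 and 25 of 28 genes above 0 in HT and HM against WT, with medians of 0.07 and 0.08. Leaving out WT replicate 1 gave a voltage-gated median of 0.05 in HM against WT, and leaving out WT replicate 2 gave 0.11. WT replicate 1 also had the lowest astrocyte sum (99905 against 104824 to 117571 in the other mice) and the highest oligodendrocyte sum (175614 against 146042 to 172822). Their part in the class median was not tested.

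**Figure D3:**
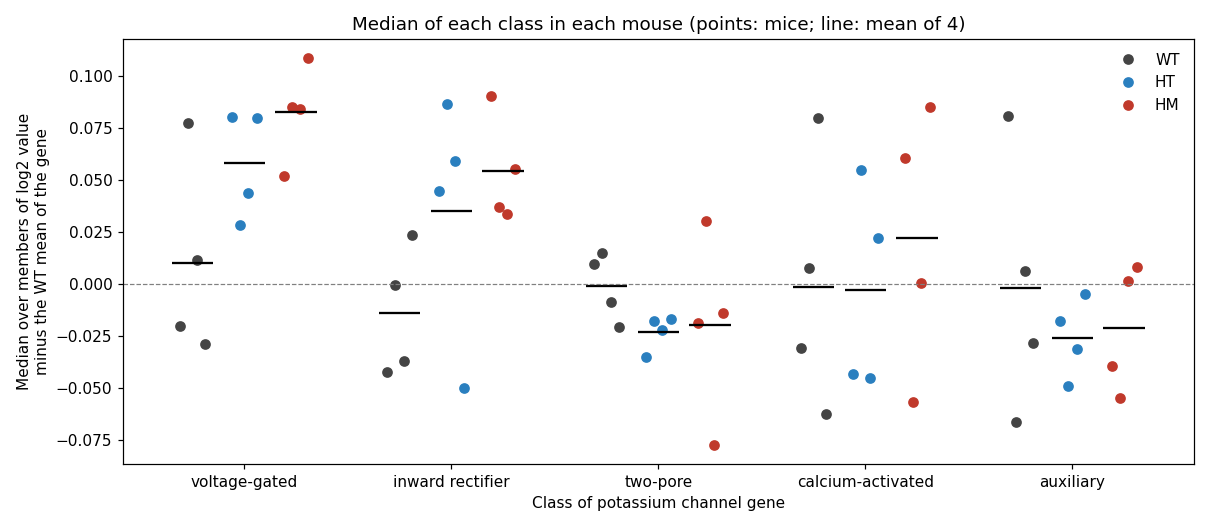
Median over the members of a class of the log2 value minus the WT mean of the gene, for each mouse (points) with the mean of 4 mice (line). The 4 HM mice lie between 0.05 and 0.11 for the voltage-gated class, above 3 of the 4 WT mice. The inward rectifiers have all HM mice (0.03 to 0.09) above all WT mice (-0.04 to 0.02), and genotypes overlap in the remaining classes.

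Among the channels that repolarize the axon and soma, the mean of each gene below except Kcnb2 stood at 101% to 108% of WT in both mutant genotypes. Kcna1, a low-threshold axonal channel, had 2588, 3360.3, 3123 and 2813 normalized counts in the WT mice, 3380.3, 3249, 2833 and 3320.1 in the HT mice and 3042, 3062, 3248 and 3231 in the HM mice. Kcna2, its partner along axons, had 11078 ± 1126 in the WT mice, 11781 ± 726 in the HT mice and 11645 ± 114 in the HM mice. For both genes WT replicate 1 was lowest, an HT mouse was highest, and the genotypes overlapped. The log2 fold changes of Kcna1 were 0.11 (SE 0.077, 95% interval -0.06 to 0.28) in HT and 0.09 (SE 0.069, 95% interval -0.06 to 0.24) in HM against WT, and those of Kcna2 were 0.09 and 0.08. Kcnc1, which allows fast spiking, had log2 fold changes of 0.04 in HT and 0.01 in HM against WT.

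Kcnb2, a delayed rectifier of the cell body, had 824, 997, 989 and 883 normalized counts in the WT mice, 1128, 969, 932 and 954 in the HT mice and 1113, 997, 1075 and 1185 in the HM mice. HM replicate 2 was level with the highest WT mouse, at 997, and the other 3 HM mice were above all WT mice. The log2 fold change was 0.24 (SE 0.074, 95% interval 0.08 to 0.40) in HM against WT (unadjusted p = 0.00587, adjusted p = 0.643, exact permutation p = 0.0571) and 0.11 in HT against WT (unadjusted p = 0.182, adjusted p = 0.862). Between HM and HT it was 0.14 (unadjusted p = 0.0759, adjusted p = 1).

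Kcna4, Kcnd2 and Kcnd3 form fast inactivating A-type channels, which delay the first spike and limit back-propagation into dendrites, and each had an unadjusted p under 0.05 in HM against WT. Kcnd1, of the same family as the latter pair, had 0.06 (unadjusted p = 0.5, adjusted p = 0.917), and Kcnc4, also of A type, had 0.04 (unadjusted p = 0.381, adjusted p = 0.878). Kcna4 had 713, 599, 823 and 772 normalized counts in the WT mice, 964, 804, 699 and 763 in the HT mice and 1048, 936, 909.9 and 788 in the HM mice. HM replicate 4 lay within the WT range and the other 3 HM mice above it. Its log2 fold change was 0.34 (SE 0.1, 95% interval 0.12 to 0.56) in HM against WT (unadjusted p = 0.00518, adjusted p = 0.643, exact permutation p = 0.0571), 0.15 in HT against WT (unadjusted p = 0.178, adjusted p = 0.86) and 0.19 in HM against HT (unadjusted p = 0.0779, adjusted p = 1).

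Kcnd2, the dendritic A-type channel of principal neurons, had 3148, 3284, 2948 and 3061 in the WT mice, 3289, 3388, 3201 and 3356 in the HT mice and 3262, 3359, 3395 and 3509.8 in the HM mice. Only WT replicate 2 reached into the HM range. Its log2 fold change was 0.12 (SE 0.044, 95% interval 0.03 to 0.22) in HM (unadjusted p = 0.0167, adjusted p = 0.664, exact permutation p = 0.0571) and 0.09 in HT against WT (unadjusted p = 0.0623, adjusted p = 0.779). Kcnd3, its relative with strong expression in interneurons, had 2888, 3282, 3208 and 3077 in the WT mice, 3288, 3185, 3428 and 3348 in the HT mice and 3563, 3520.2, 3214 and 3401 in the HM mice. Here too the highest WT mouse, replicate 2, overlapped the lowest HM mouse. This gave a log2 fold change of 0.14 (SE 0.05, 95% interval 0.03 to 0.25) in HM (unadjusted p = 0.0166, adjusted p = 0.664, exact permutation p = 0.0571) and 0.09 in HT against WT (unadjusted p = 0.0804, adjusted p = 0.794; 0.05 without WT replicate 1). An antisense gene, Kcnd3os, overlaps Kcnd3, and the study's methods name no stranded library kit, so their reads may not be fully told apart.

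No gene of the Kcnq or Kcnh families had an unadjusted p under 0.05. Log2 fold changes ran from 0.02 to 0.12 (Kcnq) and -0.05 to 0.21 (Kcnh) in HT, and from -0.08 to 0.28 and -0.06 to 0.35 in HM against WT, with Kcnh8 highest of the Kcnh genes in HT and Kcnh6 in HM. Kcnq3, a subunit of the slowly activating M-type channel that restrains repetitive firing, had 8346 ± 664 in the WT mice, 8925 ± 593 in the HT mice and 8927 ± 320.1 in the HM mice, and its log2 fold change was 0.10 in both comparisons with WT (adjusted p = 0.84 and 0.743). Kcnh7 had log2 fold changes of 0.04 and 0.11, and Kcnh5 of 0.05 and 0.18, in HT and HM against WT. Kcnh3 was one of the few voltage-gated genes below WT, at -0.05 (SE 0.042, 95% interval -0.15 to 0.04) and -0.05 (SE 0.04, 95% interval -0.14 to 0.03), with adjusted p = 0.873 and 0.809, and the latter was -0.03 without WT replicate 1. Kcnq1, which lies under the antisense transcript Kcnq1ot1, had only 14.5 ± 7.02 normalized counts in WT.

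The silent subunits, which form no channel alone and modify the Kcnb channels they join, held 9 members. Their medians were 0.05 in HT and 0.08 in HM against WT, with 7 and 8 of 9 above 0. Kcng1 had 978, 1019.6, 1037 and 1053 normalized counts in the WT mice, 1156, 1079, 1096 and 1222 in the HT mice and 1382, 1219, 1006 and 1128 in the HM mice. Every HT mouse was above every WT mouse, whereas HM replicate 3 lay within the WT range and the other 3 HM mice above it. Its log2 fold change was 0.15 (SE 0.055, 95% interval 0.03 to 0.27) in HT (unadjusted p = 0.0155, adjusted p = 0.768, exact permutation p = 0.0286, the smallest exact p that 4 against 4 mice allow) and 0.20 (SE 0.081, 95% interval 0.03 to 0.38) in HM against WT (unadjusted p = 0.0271, adjusted p = 0.67, exact permutation p = 0.114), and the latter was 0.13 without HM replicate 1.

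Kcng3 had 51.9, 86.7, 91.7 and 82.4 normalized counts in the WT mice, 113, 115, 81.3 and 101 in the HT mice and 112, 107, 102 and 98.1 in the HM mice. WT replicate 1 was well below the others, and every HM mouse was above every WT mouse. Its log2 fold change was 0.41 (SE 0.19, 95% interval 0.01 to 0.81) in HT (unadjusted p = 0.0476, adjusted p = 0.773, exact permutation p = 0.114) and 0.45 (SE 0.17, 95% interval 0.07 to 0.83) in HM (unadjusted p = 0.0227, adjusted p = 0.67, exact permutation p = 0.0286). Without WT replicate 1 these were 0.23 and 0.27. Kcnf1 had 4269, 4339.9, 4397 and 4194 in the WT mice, 4450.1, 4263, 4536 and 4546 in the HT mice and 4655, 4586, 4469 and 4441 in the HM mice. All HM mice were above all WT mice by a narrow margin, and the log2 fold change was 0.08 (SE 0.036, 95% interval -0.00058 to 0.16), with unadjusted p = 0.0515, adjusted p = 0.713, exact permutation p = 0.0286.

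Kcng1 in HT against WT was thus the sole member whose groups did not overlap in the upward direction there (1.82% of all genes), and Kcnf1 and Kcng3 were the 2 in HM against WT (2.41% of all genes). No member had every HM mouse below every WT mouse (1.81% of all genes) or every HT mouse (1.14%). Kcng2 had log2 fold changes of -0.16 in HT and 0.11 in HM against WT, with 270.5 ± 24.5, 243 ± 32.9 and 296 ± 72.0 normalized counts in WT, HT and HM. HM replicate 3, at 397, was its highest mouse, and HM against HT gave a log2 fold change of 0.27 (SE 0.15, 95% interval -0.06 to 0.60), with unadjusted p = 0.0998, adjusted p = 1. It was 0.12 without HM replicate 3, and the value in HT against WT was -0.09 without HT replicate 2. Kcns2 and Kcnv1 had log2 fold changes of 0.06 and 0.02 in HT and 0.06 and 0.03 in HM against WT.

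**Figure D4:**
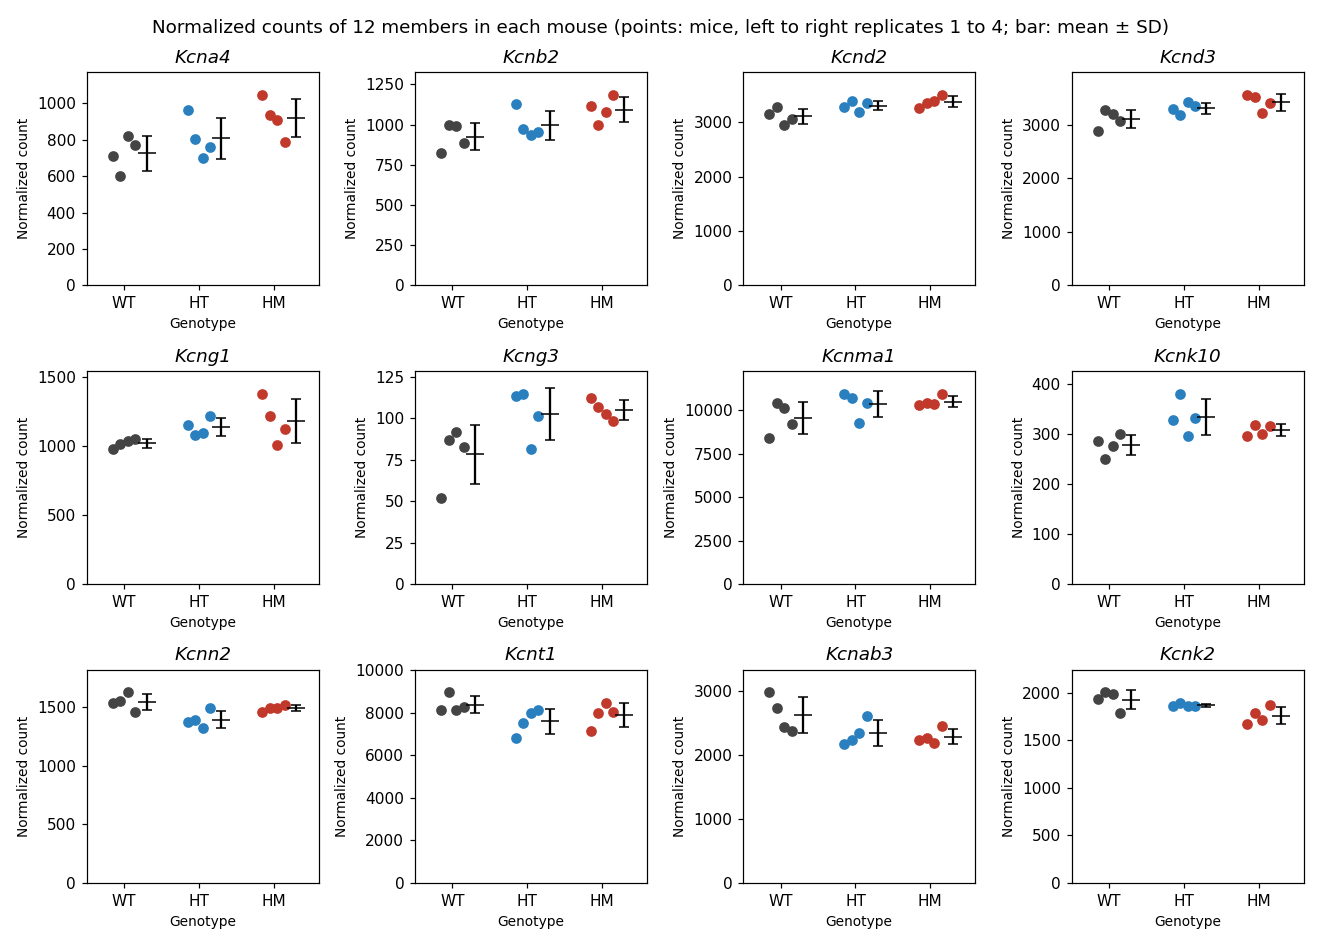
Normalized counts of 12 members in each mouse (points, replicates 1 to 4 from left to right) with mean ± SD per genotype; axes start at 0. The means of the mutant genotypes lie between 86.9% of WT (Kcnab3 in HM) and 134% of WT (Kcng3 in HM), and groups are apart for Kcng1 and Kcnt1 in HT against WT and for Kcng3 in HM against WT.

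Inward rectifiers that serve G protein-coupled receptors had no difference that passed the test, adjusted or not. Kcnj3, Kcnj6 and Kcnj9 make up the channel that is opened by inhibitory receptors. Kcnj6 had 915 ± 132 normalized counts in the WT mice, 967 ± 65.1 in the HT mice and 1023 ± 43.1 in the HM mice, with log2 fold changes of 0.09 (unadjusted p = 0.35, adjusted p = 0.901) in HT and 0.17 (SE 0.089, 95% interval -0.02 to 0.37) in HM against WT, the latter with unadjusted p = 0.0764, adjusted p = 0.734. Kcnj3 stood at 0.06 and 0.04, and Kcnj9 at 0.05 and 0.03. Kcnj12, a strong rectifier, had 436 ± 21.1, 478 ± 33.0 and 443 ± 18.8 normalized counts in WT, HT and HM, and a log2 fold change of -0.11 in HM against HT (unadjusted p = 0.134, adjusted p = 1), which was -0.07 without HT replicate 3.

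The ATP-sensitive pores are Kcnj11 of neurons and Kcnj8 of pericytes and smooth muscle. Kcnj11 had log2 fold changes of 0.03 in both comparisons with WT. Kcnj8 had 116, 119, 122 and 148 normalized counts in the WT mice, 107, 90.6, 132 and 106 in the HT mice and 117, 123, 146 and 120.3 in the HM mice. HT replicate 2 was the lowest mouse, genotypes overlapped, and the log2 fold changes against WT were -0.22 (SE 0.14, 95% interval -0.52 to 0.08) in HT (unadjusted p = 0.136, adjusted p = 0.84) and 0.0035 (SE 0.12, 95% interval -0.26 to 0.27) in HM. The value in HT was -0.14 without HT replicate 2. Over the 12 mice, log2 Kcnj8 and the mean log2 level of the endothelial and pericyte markers had Pearson r = 0.278 (permutation p = 0.376) and Spearman rho = 0.378 (permutation p = 0.228). Within genotypes r was 0.427 (permutation p = 0.201). With genotype means kept, leaving out HM replicate 1 and WT replicate 2 moved r from 0.278 to 0.523. These mice had the marker levels most distant from the median.

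Kcnj10 clears potassium through astrocytes. It had 7258, 7542, 7460.3 and 7932 normalized counts in the WT mice, 7439.6, 7601, 7479 and 7235 in the HT mice and 7621, 7798, 7652 and 8010.5 in the HM mice. Every HM mouse was above every HT mouse, the sole member apart in that comparison (1.24% of all genes), and WT spanned most of both ranges. The log2 fold change was 0.06 (SE 0.031, 95% interval -0.0048 to 0.13) in HM against HT (unadjusted p = 0.0659, adjusted p = 1, exact permutation p = 0.0286), -0.02 in HT and 0.04 in HM against WT. Its relation to the astrocyte markers over 12 mice had r = 0.542 (permutation p = 0.067, adjusted over 4 relations 0.0893) and rho = 0.58 (permutation p = 0.0526, adjusted 0.0701). Within genotypes r was 0.731 (permutation p = 0.0332, adjusted 0.0443). Without the 2 mice farthest from the median marker level, both WT, and with genotype means kept, r was 0.566 against 0.542 over 12 mice.

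Kcnj13 and Kcne2, which are both known from the choroid plexus epithelium, had the largest downward estimates of their classes in HM brains. Kcnj13 had 96.7, 93.9, 102 and 129.6 normalized counts in the WT mice, 80.6, 112, 132 and 87.8 in the HT mice and 114, 55.5, 118 and 49.1 in the HM mice. Kcne2 had 73.6, 64.6, 77.1 and 89.7 in the WT mice, 48.1, 64.3, 79.2 and 59.5 in the HT mice and 91.1, 34.7, 81.7 and 30.2 in the HM mice. For both genes HM replicates 2 and 4 were the lowest of all 12 mice, while HM replicates 1 and 3 lay within or above the WT range. The log2 fold changes in HM against WT were -0.42 (SE 0.26, 95% interval -0.99 to 0.15) for Kcnj13 (unadjusted p = 0.136, adjusted p = 0.78, exact permutation p = 0.371) and -0.51 (SE 0.31, 95% interval -1.19 to 0.17) for Kcne2 (unadjusted p = 0.131, adjusted p = 0.774, exact permutation p = 0.4). In HT against WT they were -0.05 and -0.29 (unadjusted p = 0.121, adjusted p = 0.833 for Kcne2), and Kcnj13 gave -0.37 in HM against HT. The last was -0.16 without HM replicate 4 and -0.57 without HM replicate 3, and Kcne2 in HT against WT was -0.17 without HT replicate 1.

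The summed counts of the choroid plexus markers followed the same mice, with 15753, 9800, 17815 and 10171 in HM replicates 1 to 4. Over the 12 mice, log2 Kcnj13 and the mean log2 level of the 6 markers had r = 0.943 (permutation p = 4e-05, adjusted over 4 relations 0.00016) and rho = 0.853 (permutation p = 0.00079, adjusted 0.00316). For Kcne2 r was 0.925 (permutation p = 0.00014, adjusted 0.00028) and rho was 0.804 (permutation p = 0.00253, adjusted 0.00506). The 4 relations were chosen after the values were seen, and these p-values do not cover that choice. Without HM replicates 2 and 4, the mice farthest from the median, r was 0.792 and 0.728. Over all 12 mice with the genotype means removed, r was 0.934 for Kcnj13 (permutation p = 0.00718) and 0.922 for Kcne2 (permutation p = 0.0123). Each had an adjusted p of 0.0246. Kcnj13 lies inside Gigyf2 on the opposite strand, so some of its reads could come from that gene. Leaving out HM replicate 4 moved the log2 fold change of Kcnj13 in HM against WT to -0.20 and that of Kcne2 to -0.24, and leaving out HM replicate 3 or 1 moved them to -0.62 and -0.77.

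**Figure D5:**
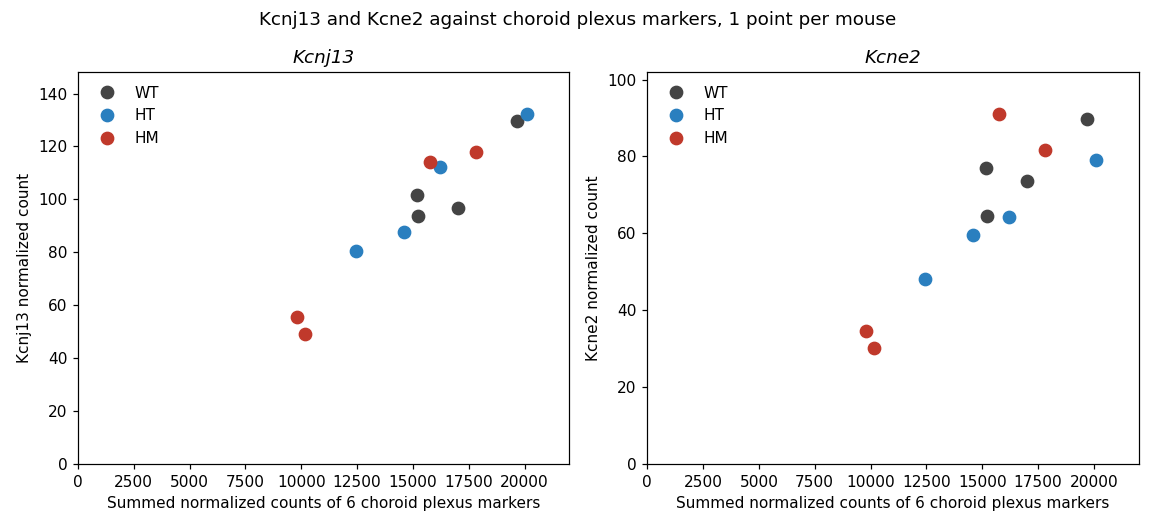
Normalized count of Kcnj13 (left) and Kcne2 (right) against the summed normalized counts of 6 choroid plexus markers, 1 point per mouse, coloured by genotype. HM replicates 2 and 4 have the lowest marker sums (9800 and 10171) and the lowest values of both genes.

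Two-pore channels carry the leak conductance that holds the resting potential. Kcnk10, a mechanically and lipid-gated channel, had 286, 251, 277 and 300.4 normalized counts in the WT mice, 328, 381, 296 and 332 in the HT mice and 297, 319, 301 and 318 in the HM mice. HT replicate 3 overlapped the highest WT mouse, and the other 3 HT mice were above all WT mice. The log2 fold change was 0.26 (SE 0.094, 95% interval 0.05 to 0.46) in HT (unadjusted p = 0.0167, adjusted p = 0.768, exact permutation p = 0.0571), 0.15 in HM against WT (unadjusted p = 0.0943, adjusted p = 0.743) and -0.11 in HM against HT (unadjusted p = 0.22, adjusted p = 1), the last of which was -0.04 without HT replicate 2 and -0.17 without HT replicate 3. Kcnk2, its close relative, had 1934, 2003, 1981 and 1781 in the WT mice, 1855, 1891, 1861 and 1861 in the HT mice and 1674, 1783, 1710.3 and 1873 in the HM mice. WT replicate 4 was low among the WT mice and lay within the HM range, where HM replicate 4 was highest. For Kcnk2 the log2 fold change was -0.13 (SE 0.053, 95% interval -0.24 to -0.01) in HM against WT (unadjusted p = 0.0306, adjusted p = 0.673, exact permutation p = 0.0857), -0.04 in HT and -0.09 in HM against HT.

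The other named two-pore channels stood near WT. Kcnk1 had log2 fold changes of -0.05 in both comparisons with WT, and Kcnk9, an acid-sensitive channel, had 0.03 and 0.02. Kcnk13, known from microglia, ranged over 224 to 291 normalized counts in the WT mice, 242 to 282 in the HT mice and 185 to 273 in the HM mice, and its log2 fold change in HM against HT was -0.18 (SE 0.12, 95% interval -0.44 to 0.08) (unadjusted p = 0.148, adjusted p = 1). Without HM replicate 4 it was -0.08. In the same comparison 3 of 5 microglial markers were lower in HM at an unadjusted p under 0.05, with sums of 5023 to 5743 in HM and 5837 to 6123 in HT, and their part in this value was not tested.

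Among the calcium-activated genes, Kcnma1, the large-conductance channel that shapes spike repolarization, had 8387, 10414, 10142 and 9211 normalized counts in the WT mice, 10952, 10721, 9265 and 10429.6 in the HT mice and 10272, 10399, 10359.5 and 10926 in the HM mice. WT replicates 1, 3 and 4 were below all HM mice and WT replicate 2 lay within their range. Its log2 fold change was 0.14 (SE 0.059, 95% interval 0.01 to 0.27) in HM (unadjusted p = 0.0324, adjusted p = 0.673, exact permutation p = 0.114) and 0.12 in HT against WT (unadjusted p = 0.105, adjusted p = 0.822). Kcnn2, the small-conductance channel of the afterhyperpolarization, had 1537, 1557, 1627 and 1456 in the WT mice, 1376, 1387, 1325 and 1491 in the HT mice and 1464, 1492, 1498 and 1518 in the HM mice. HT mice were low apart from replicate 4, which overlapped both other genotypes. For Kcnn2 the log2 fold change was -0.15 (SE 0.053, 95% interval -0.26 to -0.03) in HT against WT (unadjusted p = 0.0161, adjusted p = 0.768, exact permutation p = 0.0571) and 0.10 (SE 0.046, 95% interval 0.00037 to 0.20) in HM against HT (unadjusted p = 0.0493, adjusted p = 1, exact permutation p = 0.0571), and -0.05 in HM against WT. Kcnn1, of the same family, had log2 fold changes of 0.20 in HT (unadjusted p = 0.0505, adjusted p = 0.775) and 0.10 in HM against WT.

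Kcnt1, a sodium-activated channel counted in this class by its family, had 8132, 8967, 8159 and 8271 normalized counts in the WT mice, 6821, 7535, 7980.2 and 8122 in the HT mice and 7134, 7989.7, 8481 and 8023 in the HM mice. Every HT mouse was below every WT mouse, the sole member apart in that direction (1.91% of all genes), although the highest HT and the lowest WT mouse were 8122 and 8132. This gave a log2 fold change of -0.14 (SE 0.055, 95% interval -0.26 to -0.02) in HT (unadjusted p = 0.0236, adjusted p = 0.77, exact permutation p = 0.0286) and -0.09 in HM against WT (unadjusted p = 0.126, adjusted p = 0.771). Without HT replicate 1 it was -0.09 in HT against WT, and without HM replicate 1 it was -0.04 in HM against WT.

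Auxiliary subunits had medians slightly below 0 in all 3 comparisons. Kcnab3, a cytoplasmic subunit of Kcna channels, had 2979, 2741, 2432 and 2378 normalized counts in the WT mice, 2165, 2235, 2351 and 2617 in the HT mice and 2237, 2273, 2189 and 2450.1 in the HM mice. WT replicates 1 and 2 were above all mutant mice, and WT replicates 3 and 4 lay among them. For Kcnab3 the log2 fold change was -0.17 (SE 0.075, 95% interval -0.33 to -0.0037) in HT (unadjusted p = 0.0457, adjusted p = 0.77, exact permutation p = 0.143) and -0.20 (SE 0.068, 95% interval -0.35 to -0.05) in HM against WT (unadjusted p = 0.0127, adjusted p = 0.655, exact permutation p = 0.0857). Without WT replicate 1 these were -0.10 and -0.14. The antisense gene Kcnab3os overlaps Kcnab3 and its reads could be counted with it.

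Of the other subunits of this family, Kcnab2 had log2 fold changes of 0.01 in both comparisons with WT, and Kcnab1 of 0.06 and -0.02, with -0.08 in HM against HT (unadjusted p = 0.0592, adjusted p = 1). Kcnip2 and Kcnip4, calcium-binding subunits of the Kcnd channels, had -0.06 and 0.02 in HT and -0.04 and -0.0049 in HM against WT. All 4 Kcnip genes were below 0 in HM against WT and all 3 Kcnd genes above 0, with family medians of -0.03 and 0.12, and no difference between the families was tested. Kcnmb4, the neuronal subunit of the Kcnma1 channel, had 1676 ± 159.8, 1569.6 ± 53.7 and 1602 ± 90.9 normalized counts in WT, HT and HM, with log2 fold changes of -0.09 and -0.06. Kcnmb4 also overlaps antisense genes. Kcne1l had log2 fold changes of 0.09 and 0.06, and Kcnu1 of -0.11 and -0.12.

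Genes whose products join potassium channels or share their structure, but whose symbols do not follow the rule, were followed as a list of 22, of which 21 were in the table. None had an adjusted p under 0.05. In HT and in HM against WT, 16 of 21 had a log2 fold change above 0 (50% and 49.8% of all genes), with medians of 0.04 and 0.05. In HM against HT 12 of 21 did (49.5% of all genes), with a median of 0.00352. At an unadjusted p under 0.05 there were 2 of 21 in each comparison with WT (6.42% and 6.99% of all genes). In HM against HT there was 1 of 21 (3.74%). Dpp6, the transmembrane partner of Kcnd channels, had 8072 ± 278 normalized counts in the WT mice, 8599.8 ± 199 in the HT mice and 8716 ± 113 in the HM mice. Its log2 fold changes were 0.09 (SE 0.038, unadjusted p = 0.0321, adjusted p = 0.77) in HT and 0.11 (SE 0.036, unadjusted p = 0.00812, adjusted p = 0.65) in HM against WT, and all HM mice were above all WT mice. Lgi1, a secreted protein found with Kcna channels, had 4566 ± 186 in WT and 4869 ± 77.7 in HT (log2 fold change 0.09, unadjusted p = 0.0369, adjusted p = 0.77). Abcc9, the sulfonylurea receptor that pairs with Kcnj8 in pericytes, had 332 ± 23.7 in the WT mice, 327 ± 25.8 in the HT mice and 391 ± 20.7 in the HM mice. Every HM mouse was above every WT and every HT mouse, with log2 fold changes of 0.24 (SE 0.079, unadjusted p = 0.0101, adjusted p = 0.655) and 0.26 (SE 0.077, unadjusted p = 0.0055, adjusted p = 1). For its pore partner Kcnj8 the 95% interval in HM against WT ran from -0.26 to 0.27. The summed endothelial and pericyte markers were 8202 to 9033 in HM, 7802 to 8612 in HT and 7079 to 8802 in WT, and their part in the value of Abcc9 was not tested.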

How the data were processed

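Poly-A RNA of 12 single brains was made into libraries, with no stranded kit named in the study's methods, and read from both ends (100 bp). Per the labels, reads were assigned with Salmon 1.1.0 to GRCm38, with GC bias correction per the study's methods, summed with tximport and scaled with DESeq2 1.30.1. The deposited signal is thus a normalized count per gene and mouse, made by the authors. At most 44.9% of low values were within 0.02 of whole multiples of a read, so the read counts could not be recovered and no count model was fitted.

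Genotypes came from the titles. Symbols, lengths and coding sequences came from GENCODE M21 on GRCm38 (19758 of 19775 identifiers found). Each pair of genotypes was fitted with limma 3.58.1 in R 4.3.3, with a trended variance prior, on log2(normalized count + 1) taking genes whose mean over the 8 mice reached 10 (18004, 18004 and 17986 genes), with Benjamini-Hochberg adjustment over all genes and a threshold of 0.05. The fit was tested on simulated data. Exact permutation tests of the difference of means and intervals are two-sided, and 4 against 4 mice cannot give a p below 0.0286. Each mouse is a separate animal. Relations over mice used 100000 permutations, two-sided, with within-genotype shuffling for values centred by genotype; these 4 relations were chosen after values were seen.

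Members, classes, the partner list and the marker lists (neurons, astrocytes, oligodendrocytes, microglia, endothelial cells and pericytes, choroid plexus, olfactory bulb, cerebellum, striatum, blood, hippocampus and cortex) were chosen with earlier results of these data known. Named members were those with an adjusted p under 0.05, the 6 with the smallest p in each direction of each comparison, the highest of each family per kb and 25 fixed genes; partners needed an unadjusted p under 0.05. Some members that met this rule are counted but not reported by name here. Members named beyond this rule for spread, interval, level or family were chosen after their values were seen. Python 3.11.15 with numpy 2.4.6, pandas 2.3.3, scipy 1.17.1 and matplotlib 3.10.9 was used. Alternatives were a pseudocount of 0.1, no filter, at least 10 in every mouse, a joint fit of 12 mice, quantile normalization, no variance trend, a robust prior, blocks for replicate or animal number, and leaving out each mouse.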

Additional observations from a re-analysis of the deposited data

Results flagged for a closer look

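Of 129 sets of 4 mice (43 named members in 3 genotypes), 8 held a mouse whose gap to its nearest neighbour took up more of the range than Dixon's 95% limit allows; chance gives about 1 in 20 such sets. WT replicate 2 was high for Kcnt1 (8967, next 8271), and WT replicate 4 was high for Kcnj12 (468, next 429). HT replicate 2 was high for Kcnk2, by a margin of few counts (1891, next 1861). HM replicate 4 was high for Kcnk1 (3288, next 3049) and Kcnmb4 (1738, next 1571), and HM replicate 1 for Kcnj12 (471, next 436). HM replicate 2 was low for Kcne1l (159, next 174) and HM replicate 3 for Kcnv1 (2086, next 2245).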

How the results depend on the processing

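No member reached an adjusted p under 0.05 in any comparison under any alternative or with any mouse left out, and the lowest adjusted p over all of them was 0.639 in HT against WT, 0.44 in HM against WT and 0.628 in HM against HT. Of 612 values computed for 36 named gene comparisons, 611 had the same sign; Kcna4 in HM against HT went to -0.16 with the animal-number block, where mice without a like-numbered mouse in the other genotype add nothing to the fold change. In HM against HT only HM replicate 4 and HT replicates 1 and 2 had animal numbers that begin alike. The values of this block there rest on that HM mouse alone. In the same fit Kcnk2 went from -0.09 to -6.96e-06, so that nothing of the difference was left between these mice. The animal-number block also moved by over 1.5 times Kcnj13 (-0.94), Kcnk13 (-0.54) and Kcng2 (0.44) in HM against HT. In HM against WT it so moved Kcng1 (0.09), Kcnt1 (-0.05), Kcnab3 (-0.30) and Kcnh3 (-0.11). In HT against WT it did so for Kcng3 (0.19), Kcnd3 (0.06) and Kcnab3 (-0.10). Counts at an unadjusted p under 0.05 moved more, and the share of all genes under each alternative is not given here. In HT against WT the 6 became 3 without a variance trend. In HM against HT the 1 became 0 with no filter, with a joint fit of 12 mice, without a variance trend and with the robust prior. It became 2 with the replicate block. The animal-number block also gave a voltage-gated median of 0.03 in HT against WT (0.0349 before rounding) and a median over members of 0.01 (0.0115) in HM against WT. In HM against WT this block rests on HM replicates 3 and 4 and WT replicates 1 and 2 alone. In HT against WT it leaves WT replicate 1 without weight. Whether anything beyond this choice of mice moved these values was not tested.

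With 1 mouse left out, the count at an unadjusted p under 0.05 ranged from 3 (without HT replicate 1) to 9 (without WT replicate 2) in HT against WT, from 7 (without HM replicate 4) to 16 (without WT replicate 2) in HM against WT, and from 0 to 3 in HM against HT. The count at an adjusted p under 0.05 was 0 throughout. The share of all genes at an unadjusted p under 0.05 is not given for these fits, so the unadjusted counts are not set against it. The median over members ranged from 0.0240 (without HT replicate 4) to 0.0515, from 0.0184 (without WT replicate 3) to 0.0368 and from 0.00260 (without HT replicate 3) to 0.0212 (without HT replicate 4). The voltage-gated median ranged from 0.0383 (without HT replicate 4) to 0.0741, from 0.0527 to 0.106 and from 0.00920 to 0.0292 (without HT replicate 4). The number of its 37 genes above 0 ranged from 28 to 34, 27 to 34 and 22 to 26. Under the other processing choices, with all mice kept, that number ran from 29 to 31, 26 to 33 and 21 to 24.

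Mice with the same replicate number did not deviate together (correlations from -0.066 to 0.087 in the 3 comparisons), so the replicate numbers do not pair them. The replicate block changed no call on an adjusted p. No such correlation was computed for the animal numbers. Members near a mean of 10, such as Kcnn4 and Kcnq1 have low normalized counts and wide intervals, and the number of reads behind them is unknown.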

Other observations

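The 4 antisense transcripts with a matching symbol and the 2 channel genes under the limit had the following normalized counts. Kcnq1ot1, the long transcript antisense to Kcnq1, had 1514 ± 172 in WT, 1426 ± 159 in HT and 1419 ± 93.0 in HM, against 14.5 ± 7.02 for Kcnq1 in WT. Kcnmb4os2 had means of 77.7, 61.9 and 58.2, and Kcnd3os 34.4 ± 3.83, 28.4 ± 6.77 and 31.9 ± 9.51. Kcnab3os, antisense to Kcnab3, had 10.7 ± 2.08, 5.79 ± 2.62 and 8.39 ± 2.45. Kcnk15, a two-pore channel gene, had 5.45 ± 4.47, 7.16 ± 5.34 and 11.7 ± 3.72, and Kcne3 had 6.21 ± 1.56, 4.79 ± 1.66 and 5.10 ± 2.71.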
